A study of Sus scrofa with 6 samples.

Results

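Fibroblast growth factors (FGFs) and their receptors were followed in the endometrium, the inner lining of the uterus, of 6 Erhualian sows, a Chinese pig breed, on day 12 of gestation. The labels call 3 of the sows high prolific and the other 3 low prolific, with 1 library from each sow; no genetic change or agent is named for either group. Members were the rows whose Ensembl pig identifier maps to 1 of 9 symbols, the ligands FGF1, FGF2, FGF9 and FGF18 and the receptors FGFR1, FGFR2, FGFR3, FGFR4 and FGFRL1. All 9 were found among the 14262 genes of the table. The sows are numbered within their group as in the labels. Parity counts the litters a sow has borne: high 1 and low 3 were at parity 5, both low 1 and low 2 at 7, and both high 2 and high 3 at 8, so only parity 5 had a sow in each group.

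FGFs are secreted or released proteins that bind, together with heparan sulfate chains of the cell surface and matrix, to receptor tyrosine kinases. Binding recruits adaptors such as FRS2 and starts the RAS and MAP kinase cascade, which induces ETV transcription factors and, as brakes, Sprouty proteins and dual-specificity phosphatases. In the pig uterus around the time of maternal recognition of pregnancy, FGFs of the epithelium and stroma are studied as signals within the endometrium and to the elongating conceptus, whose trophectoderm carries FGF receptors. FGFR1 is often the receptor of stroma and vessels and FGFR2, in its epithelial splice form, the receptor of epithelium for FGF7 and FGF10.

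All values are normalized read counts as the authors deposited them, and the sequencing depth behind them is unknown. Column sums lay between 22663087 and 24270245. Values per transcript length were not at hand, so levels are compared between sows and not between genes. Of the cell type markers, 10 of 12 epithelial and 10 of 11 stromal fibroblast genes were in the table. Their summed values were between 65834 (low 3) and 90683 (low 1) and between 509830 (high 2) and 815118 (low 2). Their presence alone does not test the endometrial label. Smooth muscle and pericyte markers (7 of 8 measured, sums 31019 to 38954), endothelial markers (7 of 8, 10343 to 23640) and leukocyte markers (10 of 11, 4073 to 5153) were present too. Conceptus trophoblast markers were measured in 3 of 7 cases, with sums of 96.6 to 175. The neutrophil list (3 of 6 measured) was summed at 12991 in low 2 and 16339 in low 3, at 1679 in high 1 and at 435 or less (down to 108) elsewhere. S100A8 and S100A12 made up nearly all of the sum in low 2 and low 3; CSF3R, the third measured gene of that list, ran differently, with 44.3 in low 2, the lowest of the 6 sows, 199 in low 3 and 385 in high 1, the highest. No measured marker was at 0 in any sow; the lowest single value was 2.22, for S100A8 in high 2. In whole tissue, fewer cells of a type and less RNA per cell cannot be told apart.

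None of the 9 members passed when high were compared with low prolific sows by limma on log2(value + 1) with Benjamini-Hochberg adjustment over the 14262 genes at a threshold of 0.05. Their adjusted p lay between 0.646 (FGF9) and 0.906 (FGFR2). No gene of the whole table passed either, so the share called was 0% for all genes. Of the 9 members 0 had an unadjusted p under 0.05, a level that 1129 genes or 7.92% of the table reached. The groups overlapped in each of the 9 members, whereas they did not overlap in 13.5% of all genes. Log2 fold changes, here high minus low prolific throughout, were above 0 in 6 members and below 0 in 3, with a median of 0.18, against 49.6% above 0 and a median of -0.0024 over all genes. The largest gaps between the groups were those of 2 ligands, FGF9 and FGF18, which went in opposite directions.

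**Figure D1:**
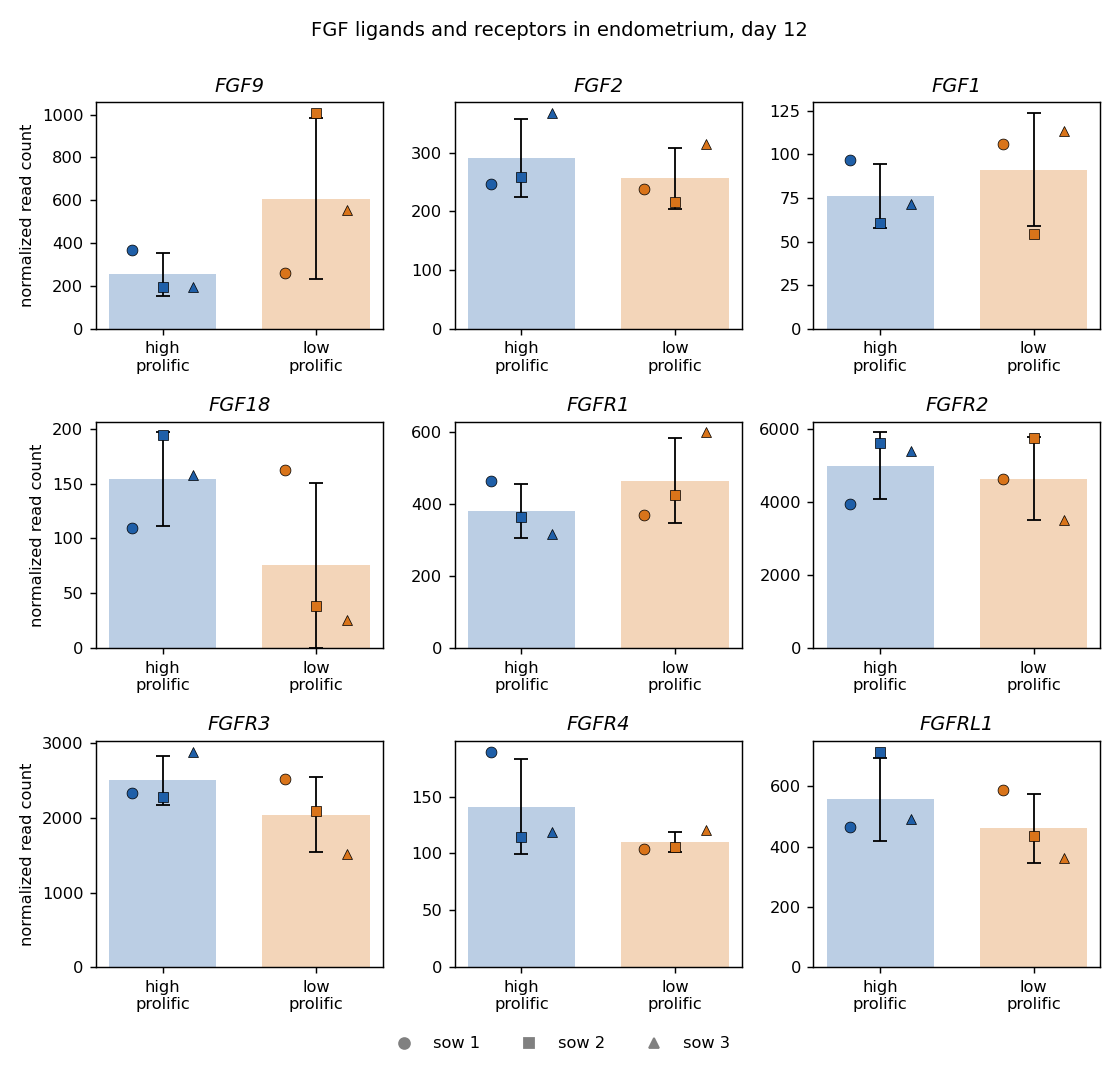
Normalized read counts (linear axes from 0) of the 9 members by group, blue for high and orange for low prolific; each bar gives the mean of 3 sows with its SD, and circles, squares and triangles sows 1, 2 and 3 of each group. The groups overlap in every panel, with FGF9 at 1007 in low 2 and FGF18 at 25.5 in low 3.

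Among the ligands, FGF9 (ENSSSCG00000009278), a secreted ligand with a preference for FGFR3 and the mesenchymal receptor forms, was at 369, 197 and 194 in high 1 to high 3 and at 262, 1007 and 553 in low 1 to low 3. The low prolific sows low 2 and low 3 were thus the highest, while low 1 lay between high 1 and the other high prolific sows. The means were 253 ± 100.2 and 607 ± 375 (SD, n = 3). The fitted fold, from the means of log2(value + 1) and so not the ratio of these means, was 2.17-fold lower in high prolific sows (log2 fold change -1.12 ± 0.52, SE; limma adjusted p = 0.646). The 95% interval of the fold of high over low reached from 0.194 to 1.09. Leaving out low 1 gave -1.62 and leaving out low 2 gave -0.65; with low 2 and low 3 both left out it was -0.12.

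FGF18 (ENSSSCG00000016997), a secreted ligand of another FGF subfamily, best known from cartilage and bone, ran the other way. It was at 109, 194 and 158 in high 1 to high 3, at 162 in low 1, and at 38.7 in low 2 and 25.5 in low 3. The same pair of sows that was highest in FGF9 was lowest in FGF18, and low 1 again sat among the high prolific sows. The means were 154 ± 42.7 and 75.5 ± 75.5, and the fitted fold on the log2(value + 1) scale was 2.71-fold higher in high prolific sows (log2 fold change 1.44 ± 0.68, SE; limma adjusted p = 0.654), with a 95% interval of the fold from 0.871 to 8.45. Leaving out low 1 gave 2.22 and leaving out low 3 gave 0.90; with low 2 and low 3 both left out the sign turned, to -0.11. Spread over the 6 sows on the log2 scale was larger for FGF18 than for 97.7% of all genes and for FGF9 than for 95.3%, while the other 7 members lay between the 57.9 and 78.3 percent marks.

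The ratio of FGF9 to FGF18 within a sow does not depend on a scale factor of its library, though it is not a ratio of molecules. It was 3.38, 1.01 and 1.23 in high 1 to high 3 and 1.61, 26.0 and 21.7 in low 1 to low 3. The ratio was therefore high in low 2 and low 3 only, and low 1 fell between the high prolific sows (geometric means 1.61 and 9.69, exact two-sided permutation p = 0.2, where 0.1 is the smallest that 3 against 3 allow). This ratio was chosen after the values were seen. The neutrophil markers S100A8 and S100A12 were highest in the same pair of sows, at 5414 and 7533 in low 2 and at 10857 and 5283 in low 3, while CSF3R of the same list was not, with 44.3 in low 2 and 199 in low 3 against 102 to 385 in the rest. The part of these markers in the FGF9 and FGF18 values was not tested.

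FGF2 (ENSSSCG00000036213), basic FGF, a heparin-binding growth factor of stroma and vessels, was at 247, 258 and 367 in high and 238, 216 and 315 in low prolific sows. Sow 3 of each group was the highest of its group and the groups overlapped (291 ± 66.6 against 256 ± 52.1; log2 fold change 0.18 ± 0.23, SE; limma adjusted p = 0.842). In RefSeq's annotation of Sscrofa11.1 FGF2 overlaps NUDT6, a gene known to be transcribed antisense to it, and reads of the pair may not be told apart where the counting ignored strand, a setting not given in the sources used here. NUDT6 was at 133 ± 18.5 and 112 ± 10.6. FGF1 (ENSSSCG00000024954), acidic FGF, which binds all of the signalling FGF receptors, ranged from 54.1 (low 2) to 114 (low 3), with 96.6, 60.7 and 71.3 in high 1 to high 3 and 106 in low 1. Its means of 76.2 ± 18.5 and 91.3 ± 32.4 overlapped fully, with the lowest and the highest sow both in the low prolific group (log2 fold change -0.21 ± 0.35, SE; limma adjusted p = 0.883).

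The receptors varied less than FGF9 and FGF18, with a highest-to-lowest ratio over the 6 sows between 1.64 (FGFR2) and 1.98 (FGFRL1). FGFR1 (ENSSSCG00000015815), the receptor of mesenchyme and vessels, was at 464, 364 and 317 in the high and at 371, 427 and 599 in the low prolific sows. Low 3 was highest and high 1 next, low 2 and low 1 followed, and high 2 and high 3 were lowest, so the groups overlapped (382 ± 74.7 against 466 ± 119; log2 fold change -0.27 ± 0.23, SE; limma adjusted p = 0.752). FGFR2 (ENSSSCG00000010698), whose epithelial form is the receptor of FGF7 and FGF10, was at 3933, 5625 and 5391 in high and 4640, 5761 and 3506 in low prolific sows. Here low 3 and high 1 were the lowest pair, where they were the highest for FGFR1 (4983 ± 917 against 4636 ± 1127; log2 fold change 0.12 ± 0.23, SE; limma adjusted p = 0.906). The 95% interval of the FGFR2 fold, from 0.743 to 1.58, leaves room for a moderate change in either direction.

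FGFR3 (ENSSSCG00000030827), a receptor with affinity for FGF9 and FGF18, was at 2337, 2281 and 2883 in high and 2515, 2097 and 1517 in low prolific sows. Low 3 was clearly lowest, and low 1 exceeded all but high 3 (2500 ± 332 against 2043 ± 501; log2 fold change 0.31 ± 0.21, SE; limma adjusted p = 0.700). Leaving out low 1 gave 0.48 and low 3 0.11, and leaving out low 2 and low 3 together gave -0.017. FGFR4 (ENSSSCG00000014047), known best as the hepatic receptor of the bile acid axis, was at 189 in high 1 and between 104 and 121 in the other 5 sows. A single high prolific sow thus carried the group difference (141 ± 41.8 against 110 ± 9; log2 fold change 0.32 ± 0.25, SE; limma adjusted p = 0.733), which was 0.087 without it. FGFRL1 (ENSSSCG00000036512), a receptor-like protein without a kinase domain that can bind ligand, was at 464, 714 and 492 in high and 586, 437 and 361 in low prolific sows. High 2 was highest and low 3 lowest, with low 1 above high 1 and high 3 (557 ± 137 against 461 ± 115; log2 fold change 0.27 ± 0.24, SE; limma adjusted p = 0.766). Leaving out high 2 gave 0.080, low 3 0.11 and low 1 0.46, and leaving out low 2 and low 3 together gave -0.10.

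**Figure D2:**
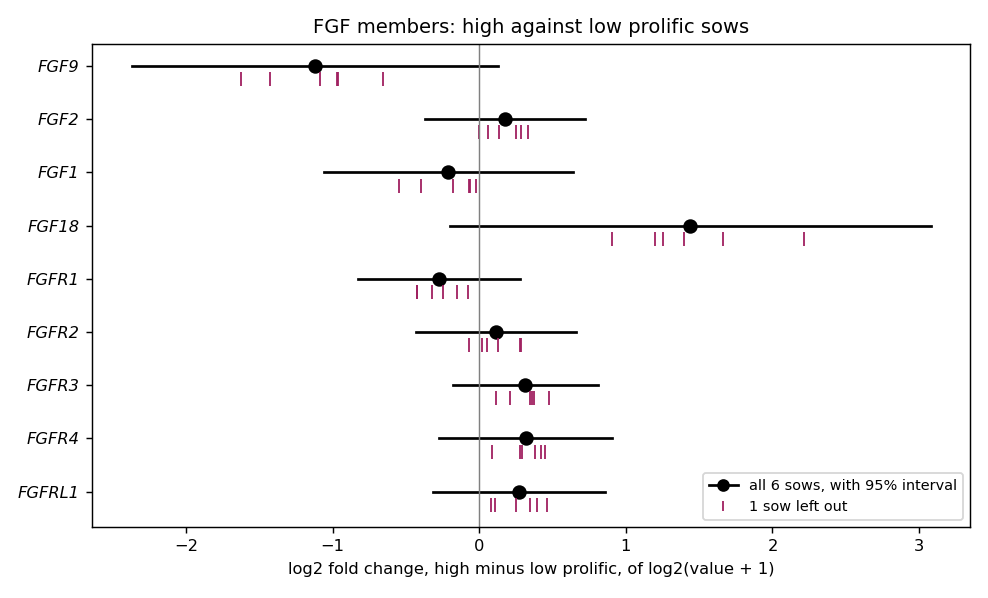
Log2 fold change (high minus low prolific, log2(value + 1) scale) of each member with its 95% interval (black) and the values with 1 sow left out (ticks). Every interval crosses 0; FGF9 (-1.12) and FGF18 (1.44) lie farthest from it and have the widest intervals.

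The ratio of FGFR1 to FGFR2 within each sow was 0.118 in high 1 and 0.171 in low 3 against 0.0648 in high 2, 0.0589 in high 3, 0.0800 in low 1 and 0.0741 in low 2. The groups did not separate (geometric means 0.0766 in high and 0.1004 in low prolific sows, exact two-sided permutation p = 0.5). This ratio was not set in advance either. Ratios of FGF10 and of FGFR3 to FGFR2 were also computed, and the groups overlapped in both (exact two-sided permutation p = 0.8 and 0.5). The 2 sows with the high ratio of FGFR1 to FGFR2 are the sows of parity 5, 1 from each group. Parity was therefore examined, after the values were seen, as a term beside group in limma over all genes, with effects in log2 units per litter. FGFR1 had an effect of -0.19 ± 0.06 (SE; limma unadjusted p = 0.0212, adjusted p = 0.477) and FGFR2 of 0.20 ± 0.05 (unadjusted p = 0.0121, adjusted p = 0.425). For FGFR4 it was -0.19 ± 0.07 (unadjusted p = 0.0452, adjusted p = 0.523). No gene passed after adjustment for the parity term, a share of 0% for all genes. At an unadjusted p under 0.05 it had 3 of 9 members and 9.42% of all genes. Leaving out 1 sow at a time gave between -0.29 and -0.15 for FGFR1 and between 0.16 and 0.28 for FGFR2, with unadjusted p of 0.0899 and 0.0552 without low 3, and of 0.0662 for FGFR1 without high 3. For FGFR4 the effect was -0.099 without high 1 (unadjusted p = 0.486). Its unadjusted p was 0.109 without high 2, 0.112 without high 3, 0.0652 without low 1 and 0.0655 without low 2, and 0.0480 without low 3. It was 0.0645 with columns rescaled to equal sums and 0.132 after quantile normalization.

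FGF10, a stromal ligand of the epithelial FGFR2 form and not one of the 9 members, was highest in the same pair of sows as FGFR1, with 1450 in low 3, 1305 in high 1 and a range of 549 to 845 in the remaining 4, whose order was not that of FGFR1. Its parity effect was -0.38 ± 0.09 per litter (SE; limma unadjusted p = 0.00753, adjusted p = 0.398), and it ran from -0.65 without high 1 to -0.26 without low 3. Among FGF target genes ETV5, an ETS factor, reached 1601 in low 3 and 1314 in high 1, with a range of 549 to 964 elsewhere. SPRY3, a Sprouty protein, went the other way, with 263 and 237 in these sows and between 305 and 421 in the rest. The related ETV4 and ETV1 of the same list did not share the pair of ETV5. ETV4 was highest in high 2 (975), with 961 in high 1 and 758 in low 3. ETV1 was highest in high 1 (3672), and high 2 (1922) was above low 3 (1740). ETV5, ETV4, ETV1 and the Sprouty genes were singled out here after their values were seen. Summed endothelial markers were highest in low 3 (23640), then low 2 (17338) and high 1 (15416), and between 10343 and 13010 in the other 3 sows. By gene, CDH5 (4507 and 3209) and TEK (1805 and 1571), singled out after their values were seen, were highest in low 3 and high 1. The rest of the 7 were highest in low 3 and low 2. The parity term had a limma unadjusted p under 0.05 in 5 of the 7, against 9.42% of all genes, and 0 passed after adjustment. The stromal fibroblast sum was highest in low 2 (815118), then low 3 (790000) and high 1 (695129), and between 509830 and 603016 in the rest. Its members differed. PDGFRA, a receptor tyrosine kinase, reached 8604 in low 3 and 7661 in high 1 with 4922 to 5921 elsewhere. DCN (43282 and 35384), VIM (36924 and 25308) and HOXA10 (1935 and 1986) were also highest in these sows. All were singled out after their values were seen. COL1A1, a collagen chain, was highest in low 2 (255612), as were COL1A2, COL3A1 and LUM. PDGFRB and HAND2 were highest in low 3 but not next in high 1. For the parity term 4 of the 10 had a limma unadjusted p under 0.05, against 9.42% of all genes, and 0 passed after adjustment. The epithelial sum was lowest in low 3 (65834) and next lowest in high 1 (77924), close to high 3 (78413), and reached 90683 in low 1. The part of these cell types in the FGFR1, FGFR2 and FGF10 values was not tested. With 1 sow of parity 5 in each group, parity and the sow itself cannot be told apart.

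**Figure D3:**
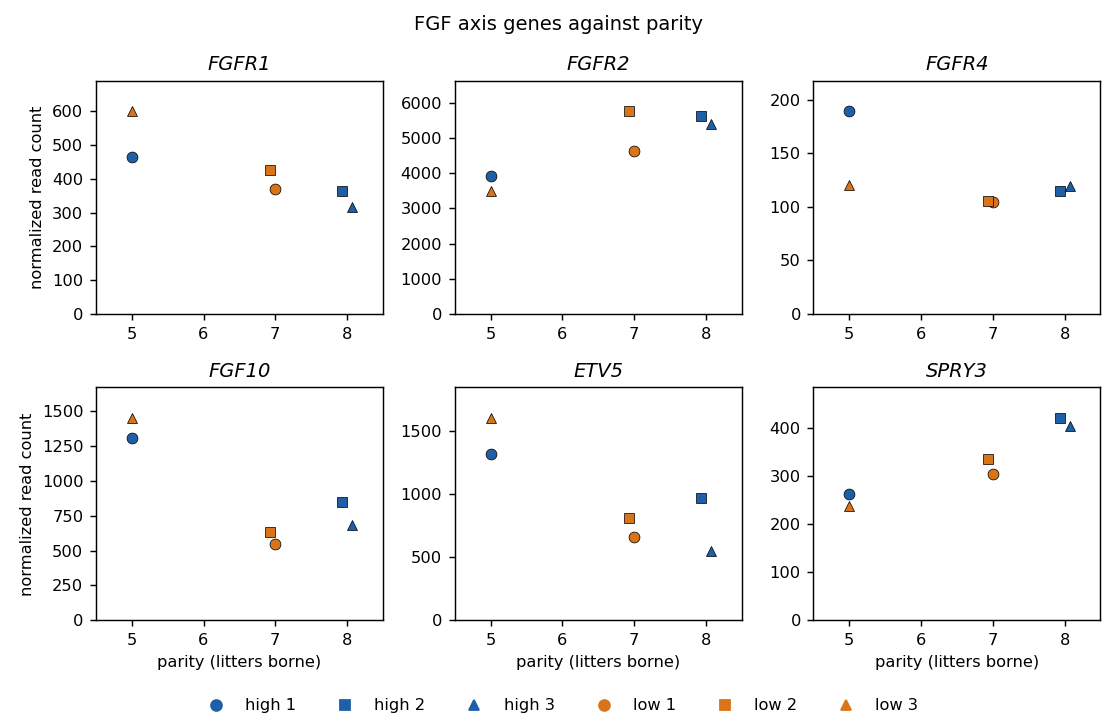
Normalized read counts (linear axes from 0) against parity in litters for 3 receptors, FGF10, ETV5 and SPRY3; blue is high and orange low prolific, and points of equal parity are set slightly apart. The 2 sows of parity 5 are the highest for FGFR1 (464 and 599) and FGF10 (1305 and 1450) and the lowest for FGFR2 (3933 and 3506).

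The deviation of each member from its mean over the sows was set beside the cell type markers. FGF9 was highest and FGF18 lowest in low 2 and low 3, the sows in which the summed neutrophil list, though not CSF3R within it, was highest. High 1 and low 3 were the highest pair for FGFR1 and the lowest for FGFR2. FGFR4 was at 0.62 in high 1, with the other 5 sows between -0.23 and -0.027. FGF1 was above its mean in high 1 (0.26) and low 3 (0.49), but also in low 1 (0.39). Its parity effect, -0.21 ± 0.13 per litter (SE; limma unadjusted p = 0.148, adjusted p = 0.598), was of a size near that of FGFR1 with a larger error. FGF2 was highest in high 3 and low 3.

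**Figure D4:**
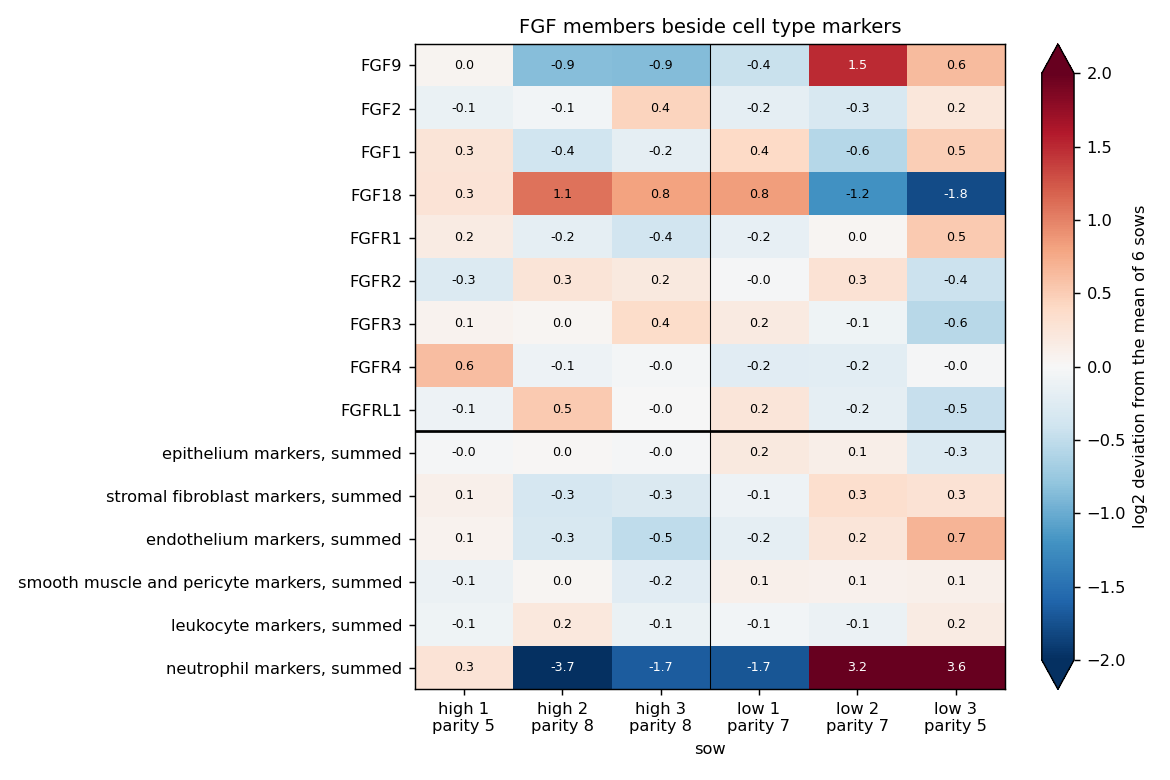
Log2 deviation from the mean of 6 sows for the members (top) and for summed cell type markers (bottom), by sow with its parity; red is above and blue below the mean, and colours end at 2 and -2. FGF9 is at 1.5 in low 2 and FGF18 at -1.8 in low 3. The neutrophil sum is at 3.2 in low 2 and 3.6 in low 3, nearly all of it S100A8 and S100A12, while CSF3R of that list is lowest in low 2.

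Genes whose log2 values ran most like a member over the 6 libraries are given as a description, with the 2 highest Pearson r of 11336 genes each. For FGF9 these were UHRF1, a DNA methylation maintenance factor (r = 0.999), and CC2D1A (r = 0.996), and 399 genes exceeded an r of 0.9. For FGF18 they were ZNF202 (r = 0.999) and MED19, a Mediator subunit (r = 0.994), with 362 genes over 0.9. For FGFR1 they were MYCT1 (r = 0.998) and GJA4, a connexin of arterial endothelium (r = 0.995), with 444 genes over 0.9. FGFR2 ran closest to MFSD10 (r = 0.990) and ABHD16A (r = 0.989), FGFR3 to ZNHIT6 (r = 0.998) and GNL1 (r = 0.995), FGFR4 to the amino acid transporter SLC7A8 (r = 0.983) and RHOQ (r = 0.980), and FGFRL1 to TCAF1 (r = 0.992) and CDA, cytidine deaminase (r = 0.991). FGF2 ran closest to FAM240B (r = 0.988) and TBC1D22A (r = 0.981), and FGF1 to SCLY (r = 0.989) and TMEM234 (r = 0.979). Over all members the number of genes over 0.9 ran from 36 (FGFR4) to 444 (FGFR1). The points share their libraries and their scaling. Each named gene was picked as 1 of the 2 highest of 11336 over only 6 points, so a high r says little.

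The rest of the FGF pathway was read from 5 lists, of which 79 of 112 genes were in the table and the other 33 matched no row. None of the 79 passed over all genes (smallest limma adjusted p = 0.619). An unadjusted p under 0.05 was reached by 3 genes (3.80% of the 79, against 7.92% of all genes), each with a negative log2 fold change. The groups did not overlap in 8 of the 79 (10.1%, against 13.5%), with 2 genes higher in high prolific sows (7.18% of all genes) and 6 lower (6.32% of all genes). Log2 fold changes were above 0 in 31 and below 0 in 48, with a median of -0.044.

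Of 18 other FGF ligands 4 were measured, and FGF7 was among those that matched no row. All 4 had log2 fold changes above 0 and none passed. FGF21, an endocrine FGF, was at 30.2, 30.0 and 33.2 in high and 16.9, 25.2 and 19.4 in low prolific sows, so its groups did not overlap at a low level (31.1 ± 1.82 against 20.5 ± 4.27; log2 fold change 0.60 ± 0.27, SE; limma adjusted p = 0.645). FGF10 was at 943 ± 324 against 877 ± 498. FGF12, an intracellular FGF homologous factor, was at 193, 151 and 169 against 128, 268 and 23.3. FGF22 was at 36.4 ± 9.04 against 33.6 ± 2.49.

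Of 15 measured co-receptors and carriers, 10 were below 0 and 5 above, and 0 passed. SDC3, a syndecan that carries heparan sulfate, was at 501, 627 and 488 in high and 755, 881 and 684 in low prolific sows, without overlap (539 ± 76.8 against 773 ± 99.7; log2 fold change -0.52 ± 0.15, SE; limma adjusted p = 0.619). HSPG2, perlecan of basement membranes, was at 12177 ± 885 against 16515 ± 3307, with low 1 (12699) inside the high prolific range. SDC1 was at 729 ± 226 against 1077 ± 430 and NCAM1, an adhesion molecule that can bind FGF receptors, at 116 ± 53.4 against 161 ± 24.

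Enzymes that build or trim heparan sulfate, 15 measured, were below 0 in 10 and above 0 in 5, and 0 passed. HS6ST1, which adds the 6-O-sulfates that FGF signalling uses, was at 1944, 1487 and 2142 in high and 2612, 3227 and 3363 in low prolific sows. All 3 high prolific sows were below all 3 low prolific sows (1857 ± 336 against 3067 ± 400; log2 fold change -0.73 ± 0.17, SE; limma unadjusted p = 0.00481, adjusted p = 0.619), the smallest p of the pathway genes. SULF1, the extracellular sulfatase that removes such 6-O-sulfates, was at 1800, 1375 and 1396 in high and 798, 819 and 1456 in low prolific sows. Its direction was the opposite of that of HS6ST1, with low 3 inside the high prolific range (log2 fold change 0.62 ± 0.26, SE; limma adjusted p = 0.633). SULF2 of the same list, named after its values were seen, did not share the direction of SULF1. It was at 1930 ± 280 against 2140 ± 908 with overlap (log2 fold change -0.066 ± 0.32, SE, limma adjusted p = 0.963). GLCE, the epimerase of the chain, was at 1573 ± 86 against 1927 ± 239 without overlap, and HS3ST1 at 94.7 ± 28.6 against 141 ± 48.9.

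Of 26 measured receptor adaptors and kinases of the cascade, 20 were below 0 and 6 above, with a median of -0.067, and 0 passed. GAB1, a docking adaptor of receptor tyrosine kinases, reached 2832 in low 2 and 2857 in low 3, against 1229 in high 1 and 569 to 769 in the remaining 3, so low 2 and low 3 were highest as in FGF9 (log2 fold change -1.32 ± 0.58, SE; limma adjusted p = 0.633). RASA1, a RAS inhibitor, was at 2074 ± 66 against 2615 ± 602, and MAPK3, ERK1, at 5990 ± 426 against 5314 ± 153 without overlap.

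Feedback inhibitors and targets, 19 measured, were above 0 in 11 and below 0 in 8, and 0 passed. DUSP4, a phosphatase of MAP kinases, was at 2108, 247 and 1729 in high and 2468, 4429 and 3895 in low prolific sows, without overlap (log2 fold change -1.85 ± 0.81, SE; limma adjusted p = 0.633). High 2 was the lowest by far and low 1 lay close to high 1. IL17RD, a membrane inhibitor of FGF signalling also called SEF, was at 864, 1434 and 2214 in high and 1098, 708 and 615 in low prolific sows, with overlap (log2 fold change 0.84 ± 0.38, SE; limma adjusted p = 0.637). SPRY1 was at 2138 ± 278 against 1547 ± 539 and FOSL1, an AP-1 subunit, at 142 ± 18.8 against 254 ± 135. The inhibitors thus did not share a direction, with DUSP4 below 0 and IL17RD and SPRY1 above.

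**Figure D5:**
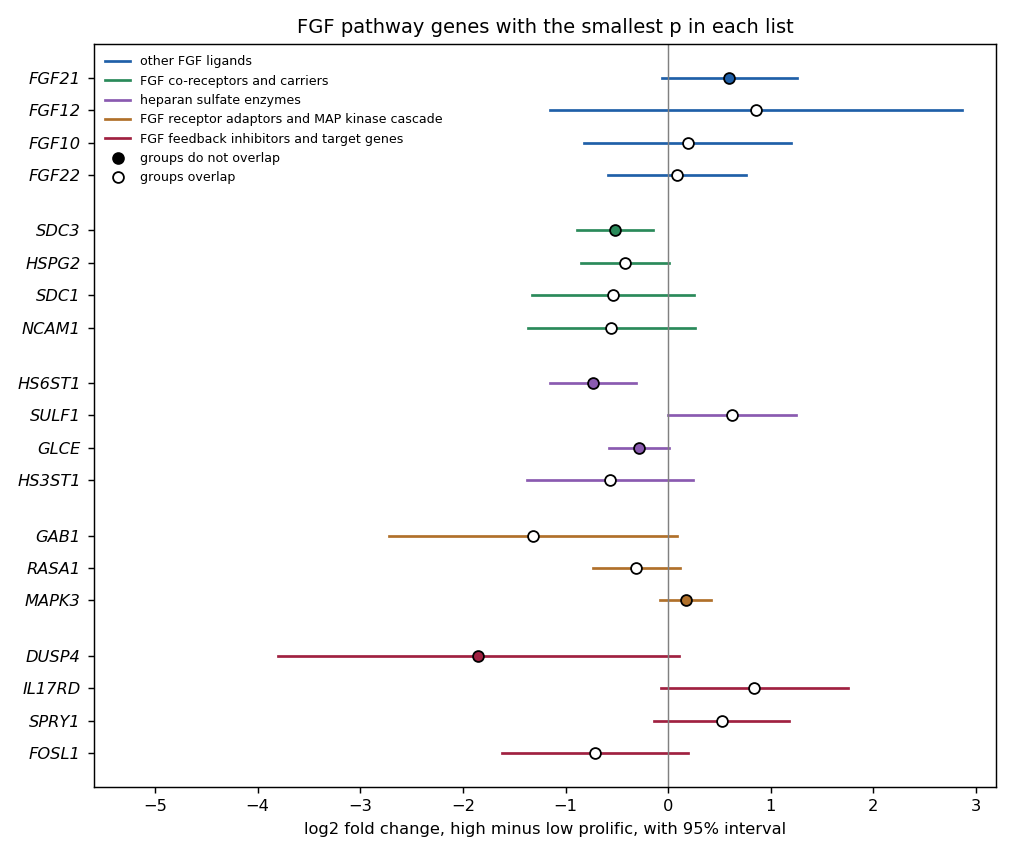
Log2 fold changes (high minus low prolific) with 95% intervals of the genes named from 5 FGF pathway lists, at most 4 of each by smallest p, coloured by list; filled points mark genes whose groups do not overlap. HS6ST1 (-0.73) and SDC3 (-0.52) are below 0 with unadjusted intervals that do not reach it, while SULF1 (0.62) and IL17RD (0.84) are above 0 with intervals that do.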

How the data were processed

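Endometrium of 6 sows (3 per group) was measured by RNA sequencing of total RNA. The authors deposited 1 table of normalized read counts, a signal that is never negative and not whole. Per the submitters' processing notes, Subread 1.6, featureCounts and edgeR were used; their roles, the normalization, genome build, annotation and strand setting are not given in the sources used here. Low values were whole multiples of 1 step (within 0.1) for 40.6% to 100% of values, so no count model was run. Low genes were absent from the table (smallest mean 17.6). Symbols were matched for 11977 of 14262 identifiers.

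Groups were compared with limma 3.58.1 (R 4.3.3) on log2(value + 1), with trend and robust moderation, two-sided, adjusted by Benjamini-Hochberg over all genes. The procedure was tested on simulated data. Named were the members, the 4 smallest p of each pathway list (1 such gene is not reported here) and, per member, the 2 genes of highest Pearson r with a mean of at least 50. The members and lists were chosen with earlier results of these data known. Nothing in the labels says whether libraries differ by batch. Limma p-values set a group difference against the spread between these sows, with the variance of each gene moderated toward a trend over all genes. Alternatives were pseudocounts of 0.5 and 10, filters on low values, other scalings, variance models, library weights, parity or the replicate number in the fit, and leaving out sows. The parity term was added after the data were seen. The depth per library is unknown.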

Additional observations from a re-analysis of the deposited data

How the results depend on the processing

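Over 18 alternatives no member and no gene of the 5 pathway lists was called. Over the whole table, leaving out 1 sow gave between 0 and 4 called genes, with 4 without low 1 and 1 without low 2. Some log2 fold changes of members turned: FGF2 to -0.0027 without high 3 (range over left-out sows -0.0027 to 0.33), FGFR2 to -0.071 without low 3 (range -0.071 to 0.29) and to -0.016 with parity as a covariate. Without both low 2 and low 3, FGF18 turned to -0.11, FGFR1 to 0.024, FGFR3 to -0.017 and FGFRL1 to -0.10; the lone low prolific sow is then assumed to vary like the others. The parity term of FGF2 turned to -0.24 without high 1 and -0.07 without high 3, in a range of -0.24 to 0.11 over left-out sows (added after the data were seen). The cause was not tested. FGF1, FGF9 and FGFR4 kept their sign throughout. Keeping genes with means of 200 or more excludes FGF1, FGF18 and FGFR4, and the filter at 10 or more in 3 libraries removed no gene. The label numbers name different sows, and same-numbered sows did not deviate together (r of -0.38, -0.16 and -0.36; 0 of 6 sows correlated best with their own number). With the replicate number as a block, 0 genes and 0 members were called and 615 genes had an unadjusted p under 0.05, against 1129 without it. Depth is unknown, so counting error is not given.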
